A study of Mus musculus with 47 samples.

Results

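The genes described here are the collagens, taken as every gene of the deposited expression table whose symbol reads Col, a number, a and a number. There were 43 of them among 22632 genes: 11 fibrillar collagens, 6 basement membrane collagens and 26 other collagens. RPKM, the unit inferred for the table from its values, scales the reads of a gene by its length and by the depth of the library. If the unit is right, levels of different genes can be compared. At least 1 RPKM in at least 1 library was reached by 31 of the 43, made up of 10 fibrillar, 3 basement membrane and 18 other collagens. The libraries came from mouse secondary embryonic fibroblasts induced to reprogram with doxycycline, in 4 clones named SC1 to SC4 and 4 clones named SI1 to SI4. The labels do not spell out SC and SI. Each clonal class was sampled after 14 days (d14) and 21 days (d21) with doxycycline, at d22 and d23, which had 21 days with the drug and then 1 or 2 days without it, and at d27, with 27 days of the drug. The SC clones were also sampled as iPS cells (induced pluripotent stem cells), with 21 days of doxycycline and 6 without. These 11 groups held 4 libraries each, 1 per clone. The 12th group held 3 libraries of mouse embryonic fibroblasts called feeders, which had no doxycycline. The labels do not say which factors doxycycline induced, whether clones grew on feeders, or how the 8 clones relate to each other.

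Collagens are proteins of the extracellular matrix built as triple helices of 3 chains. Fibrillar collagens (types I, II, III, V, XI, XXIV and XXVII) form the fibres of connective tissue, and basement membrane collagen (type IV) forms the sheet beneath epithelia. The others decorate fibrils, form beaded filaments or anchoring fibrils, or span the plasma membrane. Fibroblasts are known for high type I, III, V and VI collagen, and mouse pluripotent cells for little of these. Reprogramming fibroblasts lose mesenchymal genes as they gain an epithelial state.

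Promoters are shown for Col1a2, which stood for the fibrillar genes that moved together, for the pair Col4a1 and Col4a2, which share their promoter region, and for Col17a1, whose course differed from theirs. Each runs from 250 bases before to 50 bases after the RefSeq start site, on the strand of the gene, in build GRCm38.p6. Capitals mark the CCAAT box, the GC box (letters GGGCGG) and the TATA box (letters TATAAA), each searched on both strands.
Col1a2 (chr6:4505368-4505667, plus strand): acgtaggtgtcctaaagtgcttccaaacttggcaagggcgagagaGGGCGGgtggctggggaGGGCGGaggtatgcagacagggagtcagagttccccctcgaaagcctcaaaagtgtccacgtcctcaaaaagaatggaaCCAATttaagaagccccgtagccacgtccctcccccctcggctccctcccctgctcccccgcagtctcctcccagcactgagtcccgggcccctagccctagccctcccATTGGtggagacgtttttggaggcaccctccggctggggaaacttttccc
Col4a1 (chr8:11312777-11313076, minus strand): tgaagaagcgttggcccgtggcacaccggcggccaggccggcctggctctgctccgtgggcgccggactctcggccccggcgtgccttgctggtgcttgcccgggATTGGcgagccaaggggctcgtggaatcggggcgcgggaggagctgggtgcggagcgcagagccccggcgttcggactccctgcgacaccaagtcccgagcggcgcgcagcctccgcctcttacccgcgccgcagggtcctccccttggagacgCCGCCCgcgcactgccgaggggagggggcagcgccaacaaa
Col4a2 (chr8:11312555-11312854, plus strand): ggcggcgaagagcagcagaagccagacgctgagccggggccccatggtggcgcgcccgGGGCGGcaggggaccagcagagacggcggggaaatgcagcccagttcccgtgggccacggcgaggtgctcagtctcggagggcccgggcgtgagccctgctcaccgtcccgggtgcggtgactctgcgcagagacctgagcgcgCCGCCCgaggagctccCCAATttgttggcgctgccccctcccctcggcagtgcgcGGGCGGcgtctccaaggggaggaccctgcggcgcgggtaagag
Col17a1 (chr19:47691993-47692292, minus strand): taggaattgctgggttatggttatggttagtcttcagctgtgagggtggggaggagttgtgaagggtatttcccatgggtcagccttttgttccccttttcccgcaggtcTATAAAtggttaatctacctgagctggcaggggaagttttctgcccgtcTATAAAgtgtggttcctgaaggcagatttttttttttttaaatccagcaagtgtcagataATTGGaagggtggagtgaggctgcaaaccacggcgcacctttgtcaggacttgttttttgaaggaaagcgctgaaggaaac
The Col4a1 and Col4a2 windows shared 78 bases, and the 2 transcripts started on opposite strands with an overlap of 22 bases. RefSeq promoters were matched for 35 of the 43 genes (38 promoters). The CCAAT box was in 13 of the 38, against 37.4% of 32851 mouse promoters. The GC box was in 23 of the 38, against 35.7%, and the TATA box was in 5, against 13.6%. The letters TGANTCA, which AP-1 binds, were in 1 collagen promoter, against 7.8%. Col1a2 held 2 CCAAT boxes and 2 GC boxes, and Col17a1 held 2 TATA boxes and 1 CCAAT box. The second CCAAT box of Col1a2 began at the RefSeq start site. A gene annotation starts Col1a2 at base 4504814, outside the printed window, and boxes near other start sites were not searched. These are matches of letters, and no binding was measured.

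Summed over genes, a library held between 189172.4 and 245694.8 RPKM, with 10909 to 11931 genes at 1 RPKM or more. Read totals were not used here. In 43 of the 47 libraries the low values rose in visible steps of 1 read, which gave depths of 26.8 to 122.7 megareads with a median of 68.4, if each step is 1 read and not several. At such depths 1 read per kilobase is worth 0.00815 to 0.0373 RPKM, and values were given to 0.01 RPKM. The SC iPS libraries had 10 of 10 pluripotency markers and 9 of 10 fibroblast markers at a mean of 1 RPKM or more, and the feeders had 0 of 10 and 10 of 10. The median log2 change over all genes tested ran from -0.12 to 0.23 across the 22 comparisons as deposited and from -0.06 to 0.06 after rescaling by the median ratio, and it exceeded 0.1 in 10 comparisons. In these bulk libraries, fewer cells of a type and less RNA per cell cannot be told apart.

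On average SC iPS cells carried the least collagen RNA of the 12 groups and feeders the most, with SI d23 overlapping the feeders. All 43 genes together took 0.273% ± 0.15 of a library's RPKM in SC iPS and 1.93% ± 0.447 in SI d23 (SD, n = 4 each), against 1.96% ± 0.104 in feeders (SD, n = 3). As a share of the feeder mean in RPKM, the sum in SC clones was 52.9% at d14, 22.3% at d21, 35.6% at d22, 35.7% at d23, 15.6% at d27 and 11.6% in iPS cells. In SI clones it was 51.7% at d14, 31.6% at d21, 65.3% at d22, 95.4% at d23 and 23.1% at d27. In both classes the mean sum was lower at d21 and d27 than at d14, and higher at d22 than at d21. In SI clones the mean was higher at d23 than at d22. In SC clones the 2 means were close, and the sums at d23 were spread between 522.23 and 3583.63 RPKM.

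**Figure D1:**
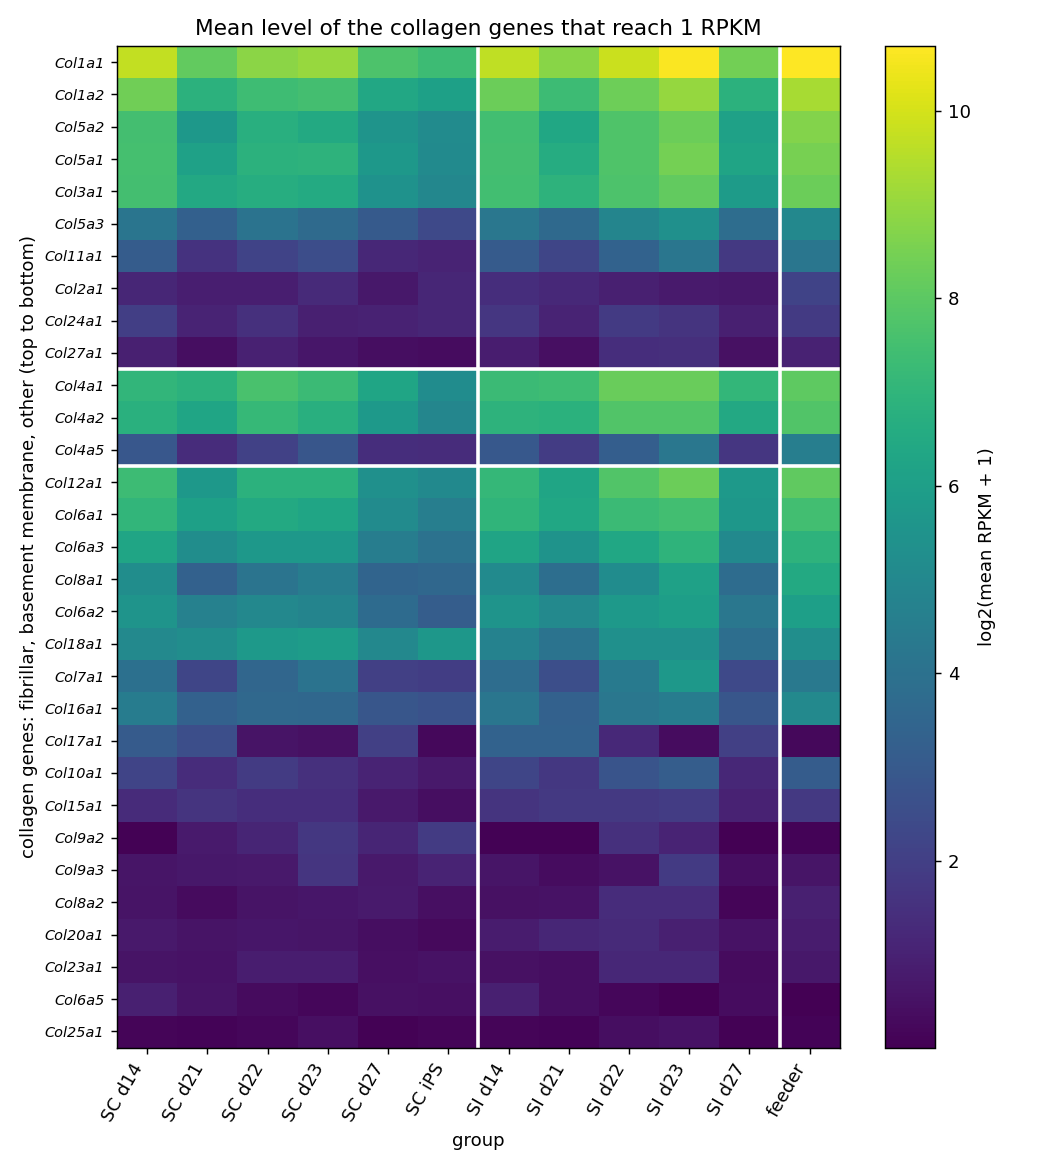
Mean level, as log2(mean RPKM + 1), of the 31 collagen genes that reach 1 RPKM in a library, in rows by class and in columns by group. Col1a1 is the brightest row throughout, and most rows darken at d21, d27 and in iPS cells, while Col17a1 and Col9a2, and Col18a1 in SC clones, follow other courses.

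The fibrillar class held most of the collagen RNA, with group means of 56.9% to 68.9% in the clones and 72.1% ± 0.608 in feeders (SD, n = 3). Its sum averaged 330.5 ± 173.7 RPKM in SC iPS cells, 3110.2 ± 739.3 RPKM in SI d23 (SD, n = 4 each) and 3425.9 ± 148.0 RPKM in feeders (SD, n = 3). The basement membrane class took 17.8% ± 3.22 in SC d21, 17.6% ± 2.69 in SC d27, 19.8% ± 5.13 in SI d21 and 20.4% ± 1.94 in SI d27 (SD, n = 4 each), against 10.6% ± 0.115 in feeders (SD, n = 3). In SC d14 it took 9.92% ± 0.916. In SI d22 and d23 the basement membrane sum, at 531.4 ± 69.6 and 544.7 ± 61.7 RPKM, was near the 503.4 ± 27.2 RPKM of feeders. The other 26 genes summed to 156.2 ± 51.3 RPKM in SC iPS, 879.1 ± 328.2 in SI d23 and 823.0 ± 50.4 in feeders.

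**Figure D2:**
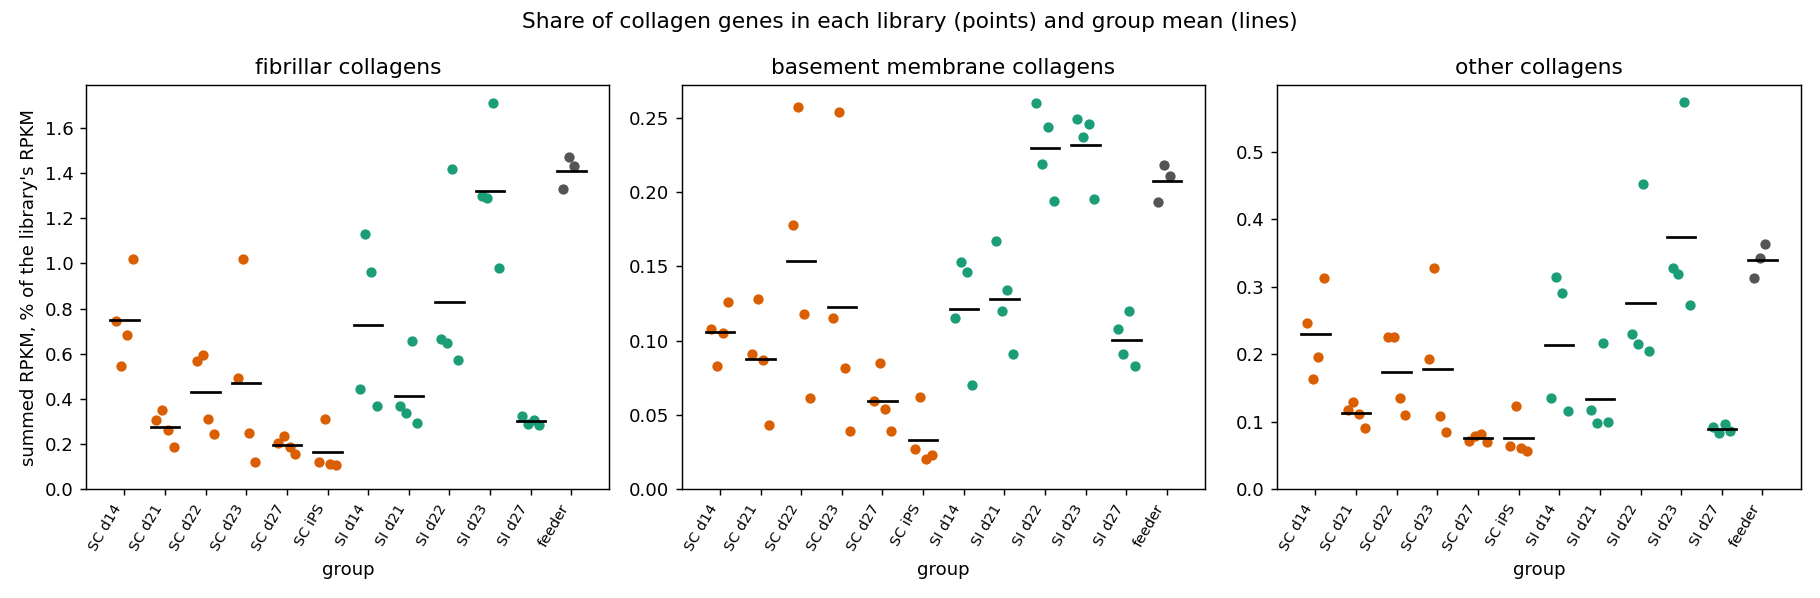
Summed RPKM of the fibrillar, basement membrane and other collagens as a percentage of all RPKM of the library, by group. Points are libraries (SC orange, SI green, feeder grey) and black lines are group means. SI d23 and feeders are the highest means in the fibrillar panel, and 1 SC d23 library, clone SC2, stands well above the other SC d23 libraries in each panel.

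Within the class lists, 18 genes had a group mean of 10 RPKM or more in at least 1 group. They were the fibrillar genes Col1a1, Col1a2, Col3a1, Col5a1, Col5a2, Col5a3 and Col11a1, and the basement membrane genes Col4a1, Col4a2 and Col4a5. The others were Col6a1, Col6a2, Col6a3, Col7a1, Col8a1, Col12a1, Col16a1 and Col18a1. The numbers of collagens with a group mean of at least 1 RPKM were close, from 21 in SI d27 to 27 in SI d22, with 23 in feeders. Nearest the 1 RPKM limit, Col25a1 peaked at 1.14 and Col6a5 at 1.62 RPKM in a library, while Col14a1 peaked at 0.74 and Col6a4 at 0.55. The 12 genes below the limit were Col4a3, Col4a4, Col4a6, Col6a4, Col6a6, Col9a1, Col11a2, Col13a1, Col14a1, Col19a1, Col22a1 and Col28a1.

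Among fibrillar genes, Col1a1 and Col1a2, the chains of type I collagen, were the most abundant pair in most groups. Col1a1 was the highest collagen in all 47 libraries. Col1a2 had the second highest mean in 9 of the 12 groups, and in SC d22, SI d21 and SI d27 its mean was below that of Col4a1. Col1a1 stood at 118.89, 289.87, 118.87 and 104.96 RPKM in iPS cells of SC1 to SC4. It stood at 1619.44, 1680.51, 1904.64 and 1154.65 RPKM in SI1 to SI4 at d23, and at 1550.16, 1782.78 and 1627.33 RPKM in feeders. Every iPS library lay below every feeder library, and the SI d23 and feeder libraries overlapped. In SC d23, Col1a1 was 512.57, 1213.11, 284.4 and 119.0 RPKM in SC1 to SC4, a range wider than in any other SC group. Col1a2 averaged 65.9 ± 30.2 RPKM in SC iPS (SD, n = 4) and 619.6 ± 13.0 RPKM in feeders (SD, n = 3).

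Col3a1, the single chain of type III collagen of skin and vessels, averaged 30.1 ± 13.5 RPKM in SC iPS, 58.2 ± 7.7 in SI d27 and 317.0 ± 18.0 in feeders. Type V collagen starts and limits the growth of type I fibrils. Its chains Col5a1 and Col5a2 averaged 33.7 ± 16.4 and 34.4 ± 23.2 RPKM in SC iPS, against 358.3 ± 18.6 and 421.5 ± 7.77 RPKM in feeders. Col5a3, the rarer type V chain, averaged 4.21 ± 1.66 RPKM in SC iPS and 31.0 ± 1.84 RPKM in feeders. Col11a1, a chain of type XI collagen, which sets fibril width in cartilage, averaged 1.12 ± 0.529 RPKM in SC iPS and 17.6 ± 1.01 RPKM in feeders. Col2a1, the main cartilage collagen, was low in all groups and highest in feeders, at 3.24, 4.11 and 3.22 RPKM. No clone library reached the lowest feeder value of Col2a1.

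Basement membrane collagen was represented by Col4a1 and Col4a2, the 2 chains of the common type IV network. Col4a1 was 32.02, 62.27, 23.44 and 27.33 RPKM in iPS cells of SC1 to SC4 and 330.96, 318.31, 309.01 and 261.52 RPKM in SI1 to SI4 at d23, against 247.1, 276.97 and 261.36 RPKM in feeders. It thus overlapped with feeders in SI d23 and lay far below them in iPS cells. In contrast to Col1a1, the mean of Col4a1 in SI clones was not lower at d21, at 166.0 RPKM, than at d14, at 153.5. By clone it was higher at d21 in SI1 and SI4, at 211.18 and 118.83 RPKM against 149.31 and 90.52 at d14. It was lower at d21 in SI2 and SI3, at 162.92 and 170.96 RPKM against 191.56 and 182.56. Col4a5, known from kidney and lung basement membranes, averaged 1.55 ± 0.848 RPKM in SC iPS and 22.6 ± 0.63 in feeders. The kidney chains Col4a3 and Col4a4 stayed at or below 0.08 RPKM in every library, and Col4a6 at or below 0.44.

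Type VI collagen forms beaded filaments around cells. Its chains Col6a1, Col6a2 and Col6a3 averaged 23.1, 7.92 and 15.2 RPKM in SC iPS, 177.0, 63.3 and 124.6 in SI d23, and 175.6, 64.9 and 119.6 in feeders. Col12a1 and Col16a1 coat fibrils without forming them. Col12a1 averaged 33.3 ± 27.6 RPKM in SC iPS and 312.3 ± 161.0 in SI d23, against 270.4 ± 28.6 in feeders. Col16a1 averaged 5.54 ± 2.53 RPKM in SC iPS and 21.6 ± 4.5 in SI d23, against 31.9 ± 1.83 in feeders. Col8a1, a short chain collagen of vessels and cornea, averaged 10.9 ± 5.93 RPKM in SC iPS and 68.2 ± 11.9 in SI d23, against 88.6 ± 2.37 in feeders.

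Col7a1, the collagen of the fibrils that anchor epidermis to dermis, stood above feeders in SI d23. It was 47.46, 66.16, 36.89 and 53.89 RPKM in SI1 to SI4 at d23, against 16.79, 20.95 and 20.0 RPKM in feeders, and the groups did not overlap. At d21 the same SI clones had 3.57, 3.34, 8.21 and 4.53 RPKM. In SC d23 it was 13.3, 42.68, 6.33 and 1.97 RPKM, so that SC2 fell within the SI range and the other SC clones did not.

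Col18a1 is the gene whose C-terminal fragment is endostatin. Its mean in SI clones was 25.5, 15.7, 40.1, 40.8 and 13.6 RPKM at d14, d21, d22, d23 and d27, low and high at the same times as the fibrillar sum. In SC clones it was 31.4, 37.2, 53.4, 59.6 and 31.0 RPKM at these times, and iPS cells, where the fibrillar sum was at its lowest, were above d27 on average. By library it was 53.39, 42.54, 55.22 and 48.69 RPKM in iPS cells of SC1 to SC4 and 13.56, 13.24, 14.69 and 13.11 RPKM in SI d27, against 35.65, 39.18 and 40.3 RPKM in feeders. The iPS libraries lay above the feeders and the SI d27 libraries below them, without overlap. In SC d27 the clones were spread, at 24.72, 10.2, 38.01 and 51.2 RPKM. RefSeq lists 2 promoters for Col18a1, and the deposited values do not separate their transcripts.

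Col17a1, a transmembrane collagen of the hemidesmosomes that fix epithelial cells to their basement membrane, took a different course. It was 4.95, 10.12, 10.59 and 4.48 RPKM in SC1 to SC4 at d14, and 2.78, 3.22, 16.06 and 15.81 RPKM in SI1 to SI4 at d14. At d23 it was 0.13, 0.7, 0.38 and 0.42 RPKM in SC clones and 0.1, 0.68, 0.11 and 0.3 RPKM in SI clones. It was 0.16, 0.13, 0.25 and 0.13 RPKM in iPS cells, against 0.17, 0.21 and 0.18 RPKM in feeders. Levels above 2 RPKM were thus found only at d14, d21, d27 and in 1 SI d22 library. Keratinocyte markers went with it in some groups only: their summed level was 66.8 to 113.8 RPKM in SC d14, 0.54 to 1.24 in SC iPS and 0.37 to 0.46 in feeders, but 10.3 to 163.1 in SI d23. From d21 to d23, where Col17a1 was lower in every clone, their sum was higher in SC2 (64.4 to 130.6 RPKM), SI1 (98.8 to 113.2), SI2 (61.2 to 157.8) and SI4 (101.6 to 163.1). Their sum was lower in SC1 (43.8 to 12.2 RPKM), SC3 (55.3 to 19.9), SC4 (22.1 to 6.59) and SI3 (20.3 to 10.3). Of these 6 markers, 4 reached a mean of 1 RPKM in SC d14 and SI d14, 3 in SI d23, 2 in SC d23 and 0 in iPS cells and feeders, and Krt15 and Trp63 stayed under 1 RPKM on average in all groups. Their part in the result was not tested.

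Col9a2, a chain of the cartilage fibril collagen type IX, was above feeders in some clone groups. It was 4.02, 1.58, 2.74 and 2.37 RPKM in iPS cells of SC1 to SC4 and 1.41, 2.95, 0.65 and 2.22 RPKM in SI1 to SI4 at d22, against 0.07, 0.03 and 0.11 RPKM in feeders. In SI d27 it was 0.02 to 0.03 RPKM. At d21 SC3 and SC4 had 0.98 and 1.62 RPKM, and SC1 and SC2 had 0.2 and 0.04. The partner chain Col9a3 averaged 2.16 RPKM in SC d23 and 2.56 RPKM in SI d23, against 0.55 RPKM in feeders, and the third chain Col9a1 did not exceed 0.15 RPKM. Cartilage markers summed to 1.58 to 3.56 RPKM in SC iPS and 4.05 to 4.39 RPKM in feeders, where 1 and 2 of the 7 reached a mean of 1 RPKM. Their mean sum was 4.32 RPKM in SC d23 and 2.55 in SC d21, with 3 and 0 of the 7 at that level. In SI clones it was 2.24, 4.36 and 4.99 RPKM at d21, d22 and d23, mainly from Sox9. From d21 to d23 the mean marker sum and Col9a2 were higher together in both classes. From d22 to d23 in SI clones they were not. Col9a2 was 1.64, 1.53, 0.18 and 0.95 RPKM in SI1 to SI4 at d23, below d22 in SI2, SI3 and SI4, while the mean marker sum rose. The part of these markers was not tested.

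Among rarer genes, Col10a1 of hypertrophic cartilage averaged 0.663 RPKM in SC iPS and 7.69 RPKM in feeders. Col15a1, a basement membrane zone collagen, averaged 0.318 RPKM in SC iPS and 2.4 RPKM in feeders. Col6a5 was about as high in SC d14 (mean 0.915 RPKM) as in SI d14 (0.908), and at most 0.01 RPKM in feeders. Col13a1, a transmembrane collagen, was at 0.35, 0.22, 0.17 and 0.1 RPKM in iPS cells of SC1 to SC4, each above the worth of 1 read per kilobase, and was listed at 0 in all SI d23, SI d27 and feeder libraries.

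**Figure D3:**
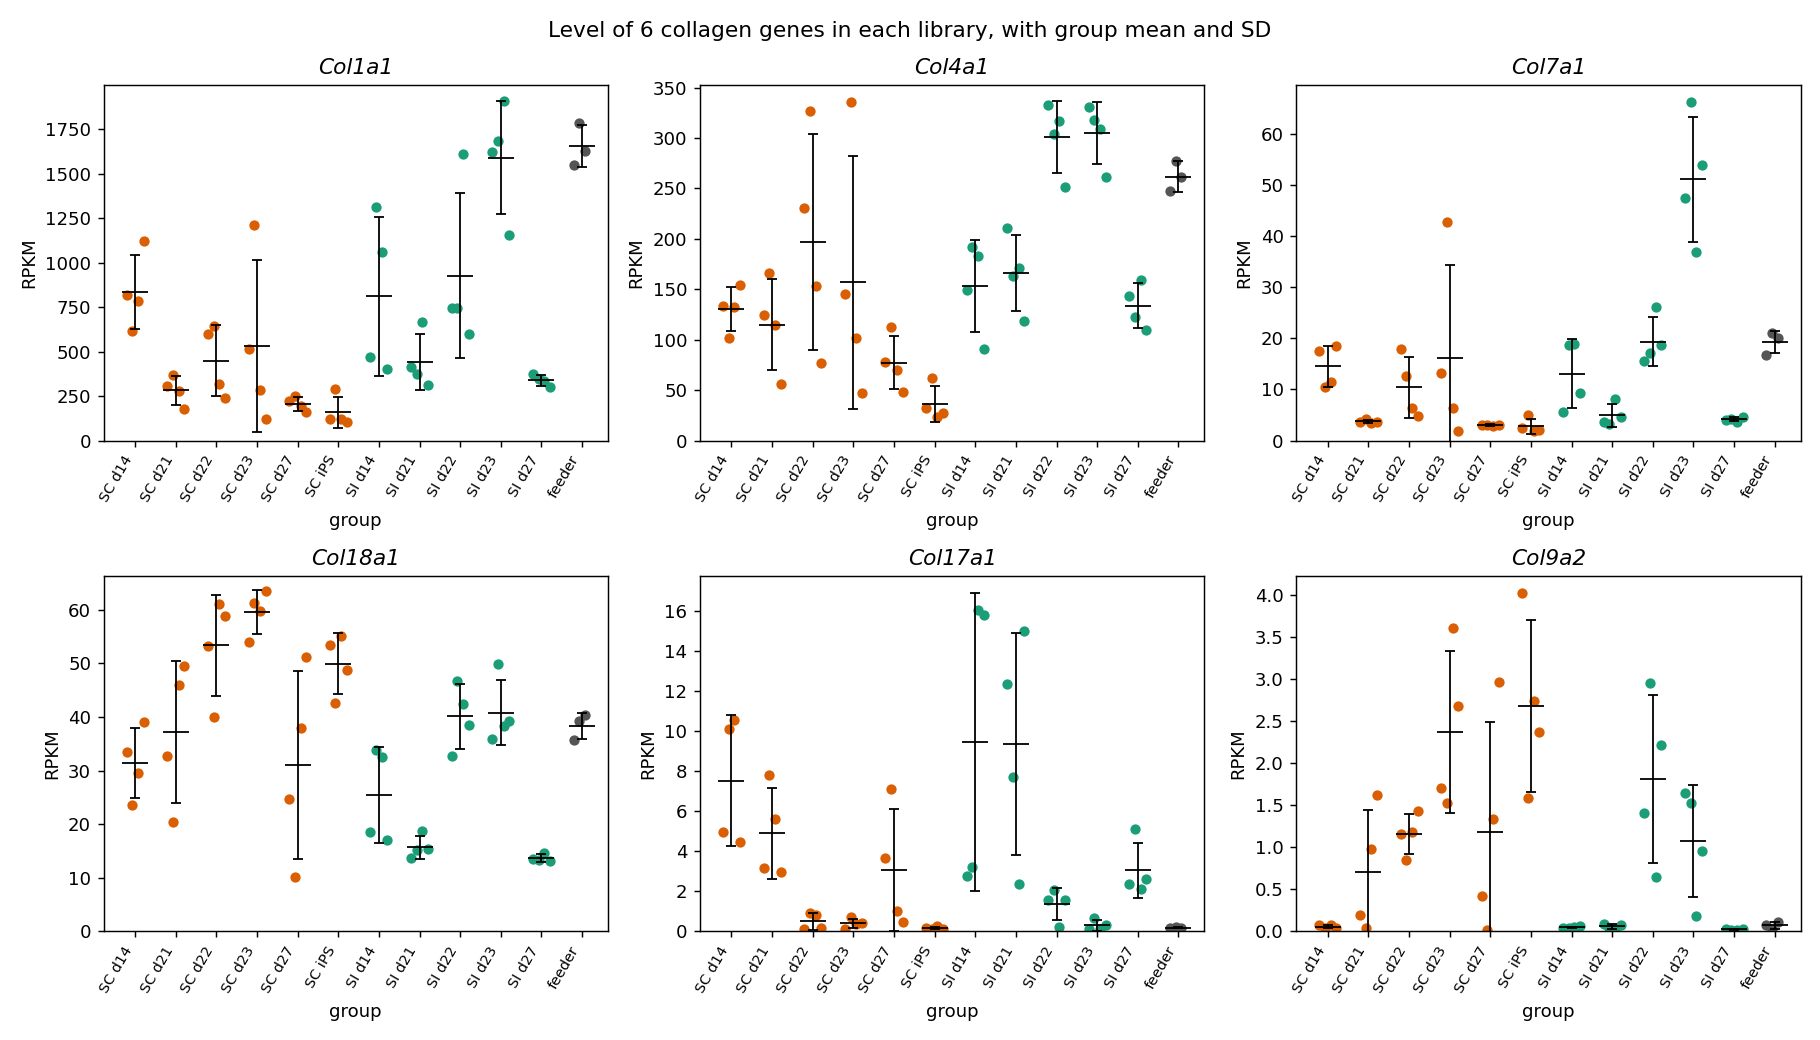
RPKM of Col1a1, Col4a1, Col7a1, Col18a1, Col17a1 and Col9a2 in every library (points: SC orange, SI green, feeder grey), with group mean and SD (black, cut off at 0). The SI d23 libraries sit at the feeder level for Col1a1 and above it for Col7a1, while Col17a1 and Col9a2 are near 0 in feeders.

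Each clone group was compared with the 3 feeder libraries, which all 11 comparisons share, by limma on log2(RPKM + 1) over all genes, with a two-sided p adjusted by Benjamini-Hochberg and a threshold of 0.05. Changes are given on that log2 scale, which understates those of genes near 1 RPKM. The labels do not say that libraries came from separate cultures, so the p-values may reflect technical spread. In SC iPS cells, 21 of the 23 collagens tested were lower than in feeders and 2 were higher, beside 38.8% and 41.2% of all genes tested. The 20 others did not pass the filter of 1 RPKM. Col5a2 fell by 3.76 (SE 0.37, adjusted p = 2.8e-05), Col1a1 fell by 3.51 (SE 0.33) and Col5a1 fell by 3.47 (SE 0.28). Col4a1 fell by 2.92 (SE 0.29), Col12a1 fell by 3.25 (SE 0.45) and Col6a1 fell by 2.94 (SE 0.24), all at adjusted p of 0.000161 or less in limma. The 2 higher genes were Col9a2, by 1.74 (SE 0.2, adjusted p = 5.53e-05), and Col18a1, by 0.37 (SE 0.11, adjusted p = 0.0161). Col9a2 was under 1 RPKM in every feeder library. It thus passed the filter through the iPS libraries alone and could hardly be called lower. The median change was -2.94 over the collagens tested and 0.06 over all genes.

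In SC clones, 17 of 24 tested collagens were lower than in feeders at d14 (24.9% of all genes), 20 of 23 at d21 (29.5%), 16 of 24 at d22 (25.3%), 15 of 25 at d23 (25.5%) and 21 of 23 at d27 (31.5%). The higher ones numbered 1 at d14 (40.8% of all genes), 1 at d21 (45.0%), 2 at d22 (39.0%), 3 at d23 (36.8%) and 1 at d27 (43.5%). Col17a1 was the higher gene at d14, by 2.76 (SE 0.27), at d21, by 2.23 (SE 0.27), and at d27, by 1.45 (SE 0.56, adjusted p = 0.0471). At d27 it was 3.68, 7.12, 1.01 and 0.46 RPKM in SC1 to SC4. Col17a1 was under 1 RPKM in every feeder library. It thus passed the filter through the clone libraries alone and could hardly be called lower. At d22 and d23 Col9a2 was higher by 1.0 (SE 0.11) and 1.61 (SE 0.22), and Col18a1 by 0.45 (SE 0.16) and 0.62 (SE 0.11). After rescaling by the median ratio the Col18a1 rise at d22 was 0.29 and missed the threshold (adjusted p = 0.169). Col9a3 was higher at d23, by 0.97 (SE 0.23). Col9a2 and Col9a3, like Col17a1, were under 1 RPKM in every feeder library, so the same limit holds for their calls. At d21 Col8a1 changed by -3.15 (SE 0.1), Col5a2 by -3.03 (SE 0.15) and Col4a5 by -3.21 (SE 0.11). When any 1 feeder library was left out, 10 or 11 collagens were called at d23 in place of 18, beside 42.3% to 43.7% of all genes in place of 62.3%. Without SC2, 24 were called, beside 78.7%.

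In SI clones, 8 of 24 tested collagens were lower than in feeders at d14 (12% of all genes), 21 of 24 at d21 (27.7%), 9 of 26 at d22 (17.1%), 3 of 25 at d23 (14.6%) and 22 of 23 at d27 (34.6%). The higher ones numbered 1 at d14 (32.1% of all genes), 1 at d21 (42.9%), 2 at d22 (37.0%), 4 at d23 (21.2%) and 1 at d27 (50.6%). Col17a1 was the higher gene at d14, d21 and d27, by 2.79 (SE 0.6), 2.91 (SE 0.48) and 1.72 (SE 0.21). At d22 Col17a1 and Col9a2 were higher, by 0.91 (SE 0.3) and 1.32 (SE 0.28). Both genes were under 1 RPKM in every feeder library. In each of these comparisons they passed the filter through the clone libraries alone and could hardly be called lower. At d27 Col4a5 fell by 2.86 (SE 0.06, adjusted p = 3.2e-09), Col5a2 fell by 2.61 (SE 0.06) and Col1a1 fell by 2.29 (SE 0.09), and Col4a1 fell by 0.98 (SE 0.12, adjusted p = 5.69e-05). Col18a1 was among the lower genes in SI d27, by 1.43 (SE 0.06).

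The 3 genes lower in SI d23 changed by -1.41 (Col2a1, SE 0.11), -0.56 (Col16a1, SE 0.15) and -0.39 (Col8a1, SE 0.13). Higher were Col7a1, by 1.34 (SE 0.19, adjusted p = 0.00509), Col9a3, by 1.1 (SE 0.33), Col27a1, by 0.43 (SE 0.14), and Col8a2, by 0.39 (SE 0.09). Col9a3 and Col8a2 were under 1 RPKM in every feeder library. They thus passed the filter through the SI libraries alone and could hardly be called lower. For Col1a1 the difference was -0.08 (SE 0.17, adjusted p = 0.74), for Col4a1 0.22 (SE 0.1, adjusted p = 0.126) and for Col5a2 -0.48 (SE 0.22, adjusted p = 0.125), which does not show that the levels were equal. After rescaling by the median ratio, Col27a1 and Col8a1 missed the threshold, at adjusted p of 0.0822 and 0.0569. Without clone SI3, 5 collagens were higher and 11 lower at d23, beside 39.9% and 25.2% of all genes. With any 1 feeder library left out 1 was higher and 1 lower, beside 5.58% to 12.4% called of all genes, and without SI1, SI2 or SI4 3 or 4 were called, beside 19.2% to 21.5%. At d14 no collagen was called with any 1 feeder library left out, beside 0.964% to 1.21% of all genes. Without SI2 or SI3, 17 or 16 were lower at d14, beside 20.9% and 23.1%, and without SI1 or SI4, 3 were, beside 4.61% and 1.37%. At d22 the 11 called collagens became 20 without SI3, beside 73.0% of all genes, and 3 or 4 with any other 1 library left out, beside 29.0% to 42.6%.

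Within the classes, the change over the 2 days without doxycycline was compared, d23 against d21. In SI clones 21 of 25 tested collagens rose and 1 fell, beside 22.7% and 32.0% of all genes. Col7a1 rose by 3.18 (SE 0.26, adjusted p = 8.83e-05), Col4a5 by 2.41 (SE 0.28), Col8a1 by 2.35 (SE 0.31), Col12a1 by 2.12 (SE 0.47) and Col11a1 by 2.07 (SE 0.29). Col1a1 averaged 1589.8 RPKM at d23 and 441.3 RPKM at d21 and rose by 1.88 (SE 0.26), while Col4a1 rose by 0.9 (SE 0.18) and Col18a1 by 1.33 (SE 0.14). All 8 fibrillar genes called, of 9 tested, and all 3 basement membrane genes tested were among those that rose. This fit left the pairing of d21 and d23 by clone unused. Col17a1 fell by 2.8 (SE 0.44, adjusted p = 0.00101). It was under 1 RPKM in every d23 library, so it passed the filter through d21 alone and could hardly be called as a rise. The median change was 1.28 over the collagens tested and -0.12 over all genes. Cell type markers moved over the same interval. Smooth muscle markers summed to 2488.5 to 4406.3 RPKM in SI d23 and 266.6 to 948.9 in SI d21, with 6 of 6 at a mean of 1 RPKM or more at both times. Fibroblast markers, with 10 of 10 at both times, summed to 589.8 to 1481.1 RPKM in SI d23 and 152.3 to 689.7 in SI d21. Leukocyte markers, with 4 of 5 at both times, summed to 165.9 to 316.8 RPKM in SI d23 and 51.6 to 117.7 in SI d21, mostly Lyz2, while the pan-leukocyte gene Ptprc averaged 0.668 RPKM and 0.222 RPKM. Pluripotency markers summed to 10.3 to 132.4 RPKM in SI d23 and 633.0 to 1474.4 in SI d21, with 5 and 7 of 10 at that level. The part of these markers in the collagen rise was not tested.

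In SC clones no collagen rose past the threshold over the same 2 days and 1 of 25 fell, beside 0.985% and 2.81% of all genes. It was Col17a1, which fell by 2.0 (SE 0.27, adjusted p = 0.00777). Here too Col17a1 passed the filter through the d21 libraries alone, so it could hardly be called as a rise. At an unadjusted p under 0.05 there were 6 of the 25 collagens, beside 19.4% of all genes. With the clone as a block, Col9a2 also rose, by 1.04 (SE 0.16, adjusted p = 0.0158), and Col17a1 remained lower, beside 4.53% of all genes higher and 8.84% lower. Col18a1 changed by 0.74 (SE 0.26, adjusted p = 0.158), Col1a1 by 0.48 (SE 0.63, adjusted p = 0.747) and Col7a1 by 1.18 (SE 0.69, adjusted p = 0.405). Without SC2 at d23, the Col1a1 value was -0.07.

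The 4 SC clones differed among themselves. Col1a1 changed by 0.74, 1.72, 0.03 and -0.55 in SC1 to SC4 and by 1.52 to 2.16 in SI clones. Col5a2 changed by 0.55, 1.81, -0.18 and -1.08 in SC1 to SC4 and by 1.57 to 2.22 in SI clones. Col4a1 changed by 0.22, 1.01, -0.17 and -0.24 in SC1 to SC4 and by 0.65 to 1.13 in SI clones. In SC2 these changes were inside the SI range, and in SC1, SC3 and SC4 they were below it. Col17a1 was lower at d23 in all 8 clones, with changes of -2.37 to -1.49 in SC and -3.62 to -1.6 in SI clones. Col9a2 changed by 0.49 to 1.28 in SC and by 0.2 to 1.28 in SI clones.

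**Figure D4:**
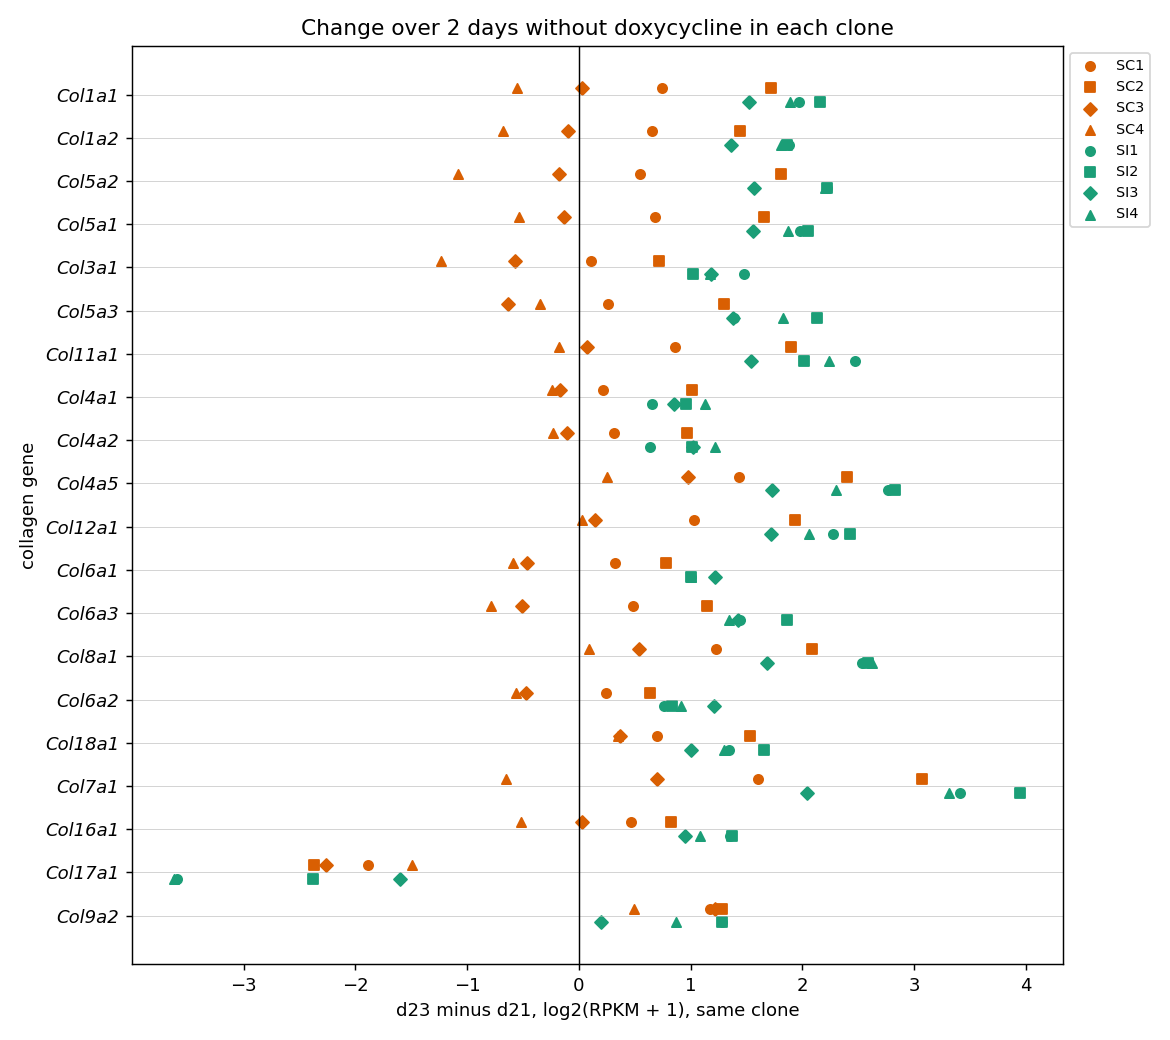
Change of log2(RPKM + 1) from d21 to d23 in each clone (SC orange, above; SI green, below; marker shape gives the clone number) for the 18 collagens with a group mean of 10 RPKM or more and for Col17a1 and Col9a2. SI points lie right of 0 for each gene but Col17a1, SC2 lies nearest to them for most genes, and SC3 and SC4 lie near or left of 0 for most fibrillar genes.

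The libraries of SC d23 also differed in marker genes. Pluripotency markers summed to 1118.7, 324.0, 1500.7 and 1779.7 RPKM in SC1 to SC4 at d23, and to 105.3, 81.8, 10.3 and 132.4 RPKM in SI1 to SI4. Fibroblast markers summed to 470.2, 598.8, 202.3 and 204.3 RPKM in SC1 to SC4 and to 589.8 to 1481.1 RPKM in SI clones. Smooth muscle markers, several of which fibroblasts in culture also express, summed to 871.4, 2053.3, 296.5 and 138.8 RPKM in SC1 to SC4 and to 2488.5 to 4406.3 RPKM in SI clones. SC2, the SC clone with the most collagen RNA at d23, thus had the lowest sum of pluripotency markers and the highest sums of both other lists among SC clones. Leukocyte markers summed to 72.8 to 142.9 RPKM in SC d23 and 165.9 to 316.8 RPKM in SI d23. The part of these lists in the collagen differences was not tested.

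The summed level of 4 genes of the Y chromosome also differed between clones and over time. In SI3 it was 12.2, 7.51, 14.6, 17.1 and 3.32 RPKM at d14, d21, d22, d23 and d27, beside collagen sums of 3299.35, 2274.33, 5062.36, 6024.76 and 1164.52 RPKM. In SC2 it was 7.17, 2.51, 5.39, 6.49 and 3.25 RPKM at these times and 6.62 RPKM in iPS cells, beside collagen sums of 1769.63, 1335.2, 2368.48, 3583.63, 886.22 and 940.33 RPKM. In SC1 it was 9.95, 2.72, 6.6, 3.95, 3.03 and 2.04 RPKM over the same 6 groups, beside 2573.89, 1164.29, 2200.91, 1732.11, 755.71 and 458.37 RPKM. In SI3 the times stood in the same order by both sums, and in SC1 they did but for d21 and d27. In SC2 both sums were higher at d23 than at d21 and in iPS cells than at d27, but their full order differed. Its iPS cells were above d22 and d23 by the Y-linked sum and below them by the collagen sum. SC3 and SC4 did not keep the order either. In SC3 the Y-linked sum stayed between 15.1 and 19.9 RPKM, beside collagen sums of 415.17 to 2288.87 RPKM. In SC4 it was lowest at d14 and highest at d21, at 23.0 and 34.2 RPKM, beside collagen sums of 3431.98 and 726.16 RPKM. In the other SI clones Y-linked sums at d23 and d21 were 28.1 and 27.3 RPKM in SI1, 42.1 and 58.5 in SI2 and 29.7 and 32.9 in SI4, while the collagen sums were 4333.25 and 1399.27, 4413.96 and 1281.7, and 3364.0 and 1047.0 RPKM. Feeder libraries held 10.7 to 14.4 RPKM of Y-linked genes. The part of other cells in these sums was not tested.

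The difference between the classes in the d23 against d21 change was tested as an interaction. Without a clone block no collagen of 28 tested was called, beside 0.0% of all genes, and 9 had an unadjusted p under 0.05, beside 25.5% of all genes. With the clone as a block, 15 collagens changed less in SC than in SI clones, beside 10.8% of all genes, and none changed more, beside 12.4%. They were Col1a1, Col1a2, Col3a1, Col5a1, Col5a2, Col5a3, Col11a1, Col27a1, Col6a1, Col6a2, Col6a3, Col8a1, Col10a1, Col12a1 and Col16a1. The difference was -1.78 for Col5a2 (adjusted p = 0.0424), -1.54 for Col5a3 (adjusted p = 0.0336) and -1.4 for Col1a1 (adjusted p = 0.0469). Without SC2, 14 collagens changed less in SC clones in the interaction without the block, beside 14.1% of all genes.

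At matched times, SC and SI clones were then compared. At d14, d21 and d22 no collagen differed in limma, with 0 of 24, 0 of 21 and 0 of 24 called, beside 0.0% of all genes at each time. At an unadjusted p under 0.05 there were 0, 1 and 15 collagens, beside 1.44%, 13.4% and 34.8% of all genes. At d21 Col18a1 averaged 37.2 RPKM in SC and 15.7 RPKM in SI clones, a difference of 1.13 (SE 0.26, adjusted p = 0.296), with no overlap between the clones. Without SC2, 1 collagen was called higher in SC at d21, beside 1.71% of all genes. At d22 without SC2, 1 was higher and 8 were lower, beside 19.0% and 15.2%.

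At d23, 17 of 25 tested collagens were lower in SC than in SI clones and 1 was higher, beside 19.5% and 23.0% of all genes. Col5a2 was 90.12, 206.13, 41.84 and 18.23 RPKM in SC1 to SC4 and 268.54, 274.07, 475.09 and 239.4 RPKM in SI1 to SI4, without overlap, a difference of -2.27 (SE 0.65, adjusted p = 0.0305). Col7a1 differed by -2.24 (SE 0.7), Col1a1 by -2.03 (SE 0.63), Col11a1 by -1.97 (SE 0.47) and Col5a3 by -1.95 (SE 0.45). Col4a5 and Col4a2 were lower by 1.61 and 1.34 (SE 0.46 and 0.48), the second at adjusted p = 0.0498. Col4a1 and Col12a1 missed the threshold, at -1.29 (SE 0.51, adjusted p = 0.0654) and -1.76 (SE 0.63, adjusted p = 0.0507). Col18a1 was the higher gene, with 53.95, 61.21, 59.76 and 63.56 RPKM in SC and 35.96, 49.81, 38.39 and 39.21 RPKM in SI clones, a difference of 0.54 (SE 0.14, adjusted p = 0.0257) without overlap. Leaving out SC1, SC3, SC4, SI2, SI3 or SI4 left 0 collagens called and at most 9 of all genes. Without SI1 there were 5 lower, beside 3.86% of all genes, and without SC2 there were 21 lower and 3 higher, beside 32.5% and 32.8%.

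At d27, 2 of 20 tested collagens were lower in SC than in SI clones, beside 0.252% of all genes, and 0 were higher, beside 0.382%. Col5a2 averaged 45.1 RPKM in SC and 68.4 RPKM in SI clones, a difference of -0.59 (SE 0.08, adjusted p = 0.0423), and Col1a2 averaged 83.7 and 116.9 RPKM, a difference of -0.48 (SE 0.08, adjusted p = 0.0495). Both calls were lost when any 1 clone other than SC2 was left out, and without SC2 there were 14 lower and 1 higher, beside 12.3% and 11.6% of all genes. Col18a1 differed by 0.92 (SE 0.41, adjusted p = 0.226).

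With longer doxycycline, d27 against d14, 20 of 22 tested collagens fell in SC clones and 0 rose, beside 21.9% and 22.5% of all genes. Col1a1 fell by 2.0 (SE 0.2, adjusted p = 0.00101), Col3a1 by 2.0 (SE 0.28), Col12a1 by 1.94 (SE 0.29), Col1a2 by 1.92 (SE 0.21) and Col5a2 by 1.91 (SE 0.21). Col4a1 fell by 0.79 (SE 0.24, adjusted p = 0.026, and 0.0569 with the clone as a block), and Col18a1 changed by -0.21 (SE 0.43, adjusted p = 0.718). In SI clones no collagen of 22 tested was called, beside 0.0% of all genes in either direction. There 17 collagens had an unadjusted p under 0.05, beside 20.6% of all genes, and the median change was -1.07. Without SI1 at d14, 16 collagens were lower, beside 10.6% of all genes. Col1a1 differed widely among SI clones at d14, with 1309.64 and 1058.93 RPKM in SI2 and SI3 and 468.33 and 401.74 RPKM in SI1 and SI4. Markers split the same clones: at d14 fibroblast markers summed to 943.9 and 951.6 RPKM in SI2 and SI3 and to 260.6 and 341.1 in SI1 and SI4. Smooth muscle markers summed to 2276.6 and 2098.0 RPKM in SI2 and SI3 and to 521.7 and 633.8 in SI1 and SI4. Pluripotency markers summed to 359.8 and 369.4 RPKM in SI2 and SI3 and to 1028.9 and 1099.6 in SI1 and SI4, and the part of these markers was not tested. The difference between the classes in this change was not tested.

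SC iPS cells were set against SC d27, which had the drug throughout. No collagen of 20 tested was called, beside 0.42% of all genes higher and 1.2% lower, and 7 had an unadjusted p under 0.05, beside 29.9% of all genes. With the clone as a block, 5 were lower, beside 7.77% of all genes, and 0 higher, beside 4.21%. Col4a1 changed by -1.11 (adjusted p = 0.0268), Col4a2 by -0.95 (adjusted p = 0.0309), Col5a1 by -0.68, Col5a3 by -0.67 and Col6a2 by -0.61. The basement membrane share of collagen RNA was 12% ± 0.991 in SC iPS and 17.6% ± 2.69 in SC d27 (SD, n = 4 each), without overlap between the ranges of 10.5% to 12.6% and 14.9% to 21.3%. Without SC2 in the iPS group 14 collagens were lower, beside 10.4% of all genes. Without SC4 at d27, 5 were lower and 3 higher, beside 17.2% and 5.87%.

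Chains that assemble into 1 molecule were compared by their ratio in each library. The RPKM ratio of Col1a2 to Col1a1, which pair 1 to 2 in type I collagen, had group means of 0.327 to 0.43, with 0.376 ± 0.0188 in feeders (SD, n = 3). Col6a2 to Col6a1 had group means of 0.338 to 0.389. Col6a3 to Col6a1 varied more, with group means from 0.527 ± 0.0678 in SI d22 to 0.728 ± 0.0684 in SI d23 (SD, n = 4 each), against 0.68 ± 0.0358 in feeders. Col4a2 to Col4a1, from the shared promoter region printed above, was 0.657 ± 0.00722 in SI d27 and 0.791 ± 0.0426 in SC iPS (SD, n = 4 each), against 0.835 ± 0.0107 in feeders. Col5a2 to Col5a1 lay between 0.69 and 0.996 on average in the clone groups, lowest in SC d23, against 1.18 ± 0.0606 in feeders. These ratios are descriptions without a test.

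The genes that make, cross-link and bind collagen were taken from lists. Of 23 genes of collagen synthesis and folding, 20 were tested in SC iPS against feeders, and 19 were lower and 0 higher, where 38.8% of all genes were lower and 41.2% higher. They included Creb3l1, a transcription factor of collagen genes, by 2.49 (SE 0.14, adjusted p = 2.3e-06), and the prolyl hydroxylase genes P3h1, by 1.91, and P4ha3, by 3.03. Mia2, which serves collagen export from the endoplasmic reticulum, did not pass, at -0.13 (adjusted p = 0.233). Of 13 genes of procollagen processing and cross-linking, 11 were tested and 11 were lower, among them the lysyl oxidase family genes Loxl4, by 2.39, and Loxl3, by 2.56, and the N-propeptidase Adamts2, by 2.41. Of 10 collagen receptors, 7 were tested and 6 were lower, among them the integrins Itga11, by 3.58, and Itga1, by 1.26, and the endocytic receptor Mrc2, by 2.22. Itga2 did not pass, at -0.33 (adjusted p = 0.217). Of 17 basement membrane partners, 14 were tested, 9 were lower and 3 higher. Laminin gene Lama2 fell by 2.11 and Sparc, a collagen-binding protein, by 3.06, while the laminin gene Lamc1 was at 50.7 ± 3.6 RPKM in SC iPS and 46.7 ± 2.29 RPKM in feeders (adjusted p = 0.285).

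In SI d27 against feeders, 18 of 20 synthesis genes, 10 of 11 processing genes and 7 of 7 receptors were lower, with 0, 1 and 0 higher, beside 34.6% of all genes lower and 50.6% higher. Fkbp10, a collagen chaperone, fell by 2.13, Loxl2 by 2.14 and the collagen receptor kinase Ddr2 by 1.8. Of 14 basement membrane partners tested 8 were lower and 4 higher, and Lama5, an epithelial laminin gene, was higher by 2.91 (SE 0.11, adjusted p = 3.61e-08).

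In SI clones at d23 against d21, 17 of 20 synthesis genes rose and 0 fell, 9 of 11 processing genes rose and 2 fell, and 4 of 6 receptors rose and 0 fell, beside 22.7% of all genes that rose and 32.0% that fell. Tram2 rose by 1.29, Plod1, a lysyl hydroxylase gene, by 0.8, Lox by 1.94, Loxl2 by 2.14, the procollagen C-proteinase Bmp1 by 1.92 and Itgb1, the integrin chain shared by all collagen-binding integrins, by 2.08. Of 15 basement membrane partners 7 rose and 1 fell, and Nid1 did not pass, at -0.54 (adjusted p = 0.131). In SC clones over the same interval 0 of 20 synthesis genes, 0 of 5 receptors and 0 of 15 partners were called, and 1 of 11 processing genes, Pcolce2, fell, by 1.4 (SE 0.18, adjusted p = 0.00757), beside 0.985% of all genes that rose and 2.81% that fell. Lox changed by 0.81 (SE 0.37, adjusted p = 0.271, and 0.0469 with the clone as a block).

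For SC against SI clones at d23, 17 of 20 synthesis genes, 10 of 11 processing genes and 3 of 6 receptors were lower in SC, and 0 were higher, beside 19.5% of all genes lower and 23.0% higher. As for the collagens, at most 9 of all genes were called when SC1, SC3, SC4, SI2, SI3 or SI4 was left out. P4ha1 differed by -0.66, Creb3l1 by -1.76 and Lox by -1.7. Of 16 basement membrane partners 5 were lower and 1 was higher: Nid2, the basement membrane linker nidogen 2, with 53.1 ± 28.7 RPKM in SC and 5.36 ± 1.76 RPKM in SI clones (SD, n = 4 each), a difference of 2.89 (SE 0.48, adjusted p = 0.0221). Lamc1 did not pass, at -0.13 (SE 0.51, adjusted p = 0.839). At d27, 1 of 20 synthesis genes was lower in SC clones, Creb3l1, by 0.55 (SE 0.08, adjusted p = 0.0428), and 0 of 11 processing genes, 0 of 6 receptors and 0 of 13 partners were called, beside 0.252% of all genes lower and 0.382% higher.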

How the data were processed

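Messenger RNA libraries were prepared with the Illumina TruSeq kit, per the labels' protocols. The authors deposited 1 table of RPKM values per gene and library. Neither the table nor the labels name the unit, which was inferred from the values, and values are given to 0.01. CASAVA 1.8 and mm9 come from the submitters' processing notes, and no aligner, counting or strand setting is named in them or in the labels. The 43 genes and all lists were chosen with earlier results of these data known. Groups follow the sample characteristics, which differ from the treatment text for d22, d23 and iPS. Limma 3.58.1 in R 4.3.3 (lmFit, eBayes with trend) was run on log2(RPKM + 1), two-sided, with Benjamini-Hochberg adjustment over all genes tested and a threshold of 0.05. A gene was tested if the number of libraries with 1 RPKM or more was no less than the size of the smaller group. A gene under 1 RPKM in all libraries of a group could pass through the other group alone, which in effect set the direction of its call. Fold changes on this scale understate low genes. Named genes had a group mean of 10 RPKM, up to 5 rises and 5 falls per comparison, 2 genes on each side of 1 RPKM, and up to 3 per list, and further collagens were named after their values were seen. Libraries with the same clone name come from the same clone, and this pairs times within a class. Their deviations correlated at 0.502 to 0.583 for SC d23 and d21, 0.339 to 0.549 for SI d23 and d21, and 0.198 to 0.4 for SC iPS and d27, but at -0.028 to 0.436 for SC d27 and d14 and -0.275 to 0.264 for SI d27 and d14, where not every pair deviated together. Clone numbers do not pair SC with SI clones. Alternatives were a pseudocount of 0.1, no filter, rescaling by the median ratio, the replicate block and leaving out each library. The fit was tested on simulated data. Promoters come from RefSeq in GRCm38.p6, a later build than mm9, and were matched by symbol. Python 3.11.15, pandas 2.3.3, numpy 2.4.6, scipy 1.17.1 and matplotlib 3.10.9 were also used.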

Additional observations from a re-analysis of the deposited data

Results flagged for a closer look

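Of 220 groups of 4 libraries tested, 33 had a library whose gap to its nearest neighbour exceeded Dixon's critical value. Chance gives about 1 such group in 20, and the genes share libraries. In iPS cells clone SC2 stood apart as the highest library for 12 collagens, at 289.87 RPKM for Col1a1, 110.92 for Col1a2, 58.31 for Col5a1, 69.02 for Col5a2, 1.91 for Col11a1, 52.38 for Col4a2 and 2.81 for Col4a5. It was also highest at 36.87 RPKM for Col6a1, 12.33 for Col6a2, 26.35 for Col6a3, 74.67 for Col12a1 and 19.82 for Col8a1, and it was the highest for other collagens that did not pass this limit, such as Col4a1 at 62.27 RPKM. Its markers stood apart too: pluripotency markers summed to 963.1 RPKM in SC2 and to 1401.1 to 1622.4 in the other iPS libraries. Fibroblast markers summed to 490.4 RPKM in SC2 and to 181.0 to 244.3 in the others, and smooth muscle markers to 601.6 and to 164.6 to 191.0. The part of these markers was not tested. Clone SI3 was the highest library at d21 for Col11a1 (7.15 RPKM), Col12a1 (167.15), Col1a2 (269.25), Col4a5 (5.54), Col5a2 (159.48) and Col8a1 (26.16). At d22 it was highest for Col11a1 (18.74 RPKM), Col12a1 (431.29), Col1a1 (1611.75), Col1a2 (575.93), Col3a1 (378.29), Col4a5 (14.86), Col5a1 (373.4), Col5a2 (393.38) and Col8a1 (67.27). At d23 it was highest for Col12a1 (551.53 RPKM), Col5a2 (475.09) and Col8a1 (86.01). The remaining 3 were SC4 at d21, lowest for Col11a1 at 1.41 RPKM, and SI2 at d27, lowest for Col3a1 at 46.69 RPKM and highest for Col17a1 at 5.11 RPKM.

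The change from d21 to d23 differed between SC and SI clones for 15 collagens in limma with the clone as a block. The difference, SC minus SI on the log2(RPKM + 1) scale, was -1.78 for Col5a2, -1.54 for Col5a3, -1.46 for Col3a1, -1.45 for Col5a1, -1.4 for Col1a1, Col1a2 and Col11a1, and -0.83 for Col27a1. It was -1.43 for Col6a3, -1.04 for Col6a1, -0.96 for Col6a2, -1.36 for Col8a1, -1.34 for Col12a1, -1.23 for Col10a1 and -0.99 for Col16a1. Without the block none of these differences passed the threshold.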

How the results depend on the processing

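The RPKM table holds no read counts, so no count test was run, and 4 libraries a group leave many counts of called collagens resting on single libraries. Without the filter, 33 collagens were called in SC d21, 38 in SC iPS, 5 in SI d14, 35 in SI d21 and 38 in SI d27 against feeders, and 0 in SC against SI clones at d27. With a pseudocount of 0.1, that last count was 1. With the replicate block, the counts were 0 for SI d14, 5 for SI d22 and 2 for SI d23 against feeders, and 0 for SC against SI clones at d27. They were 2 for SC d23 against d21, beside 4.53% of all genes higher and 8.84% lower, and 5 for SC iPS against SC d27, beside 4.21% and 7.77%. For the difference of changes the count was 15, beside 12.4% and 10.8%. Clone numbers do not pair SC clones with SI clones or feeders, so the block is informative only within a class, where it also took Col4a1 in SC d27 against d14 to an adjusted p of 0.0569. Median ratio rescaling moved no count of called collagens by over 1.5 times. Shares of all genes are not set beside the other counts of this paragraph. Calls over all genes can change with the setting too, so those counts alone do not describe the collagens.

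Leaving out 1 library at a time gave 14 to 22 called collagens for SC d14, 21 to 22 for SC d21, 15 to 21 for SC d22, 10 to 24 for SC d23, 21 to 22 for SC d27 and 23 to 23 for SC iPS against feeders. It gave 0 to 18 for SI d14, 21 to 23 for SI d21, 3 to 20 for SI d22, 2 to 16 for SI d23 and 23 to 24 for SI d27 against feeders. Between SC and SI clones it gave 0 to 0 at d14, 0 to 1 at d21, 0 to 9 at d22, 0 to 24 at d23 and 0 to 15 at d27. Over time it gave 1 to 2 for SC d23 against d21, 19 to 23 for SI d23 against d21, 19 to 22 for SC d27 against d14, 0 to 16 for SI d27 against d14, 0 to 14 for SC iPS against SC d27 and 0 to 14 for the difference of changes. The shares of all genes called, given above for many of these settings, moved as well, so the ranges do not describe the collagens alone.

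Of 2256 values of 199 gene results under other settings, 7 changed sign. More of them lost the threshold. With 1 library left out, 250 values lost it, 17 gained it and 1188 kept their call. With the replicate block 25 values lost the threshold and 6 gained it. Without the filter 19 lost it, with a pseudocount of 0.1 4 did, and after rescaling 3 did and 4 gained it. With each library left out in turn, Col1a1 in SC d23 against d21 ran from -0.07 (without SC2 at d23) to 1.04, and in SI d23 against feeders from -0.17 to 0.07 (without SI4), where it was also 0.07 with the replicate block. Col18a1 in SC d27 against d14 ran from -0.51 to 0.23 (without SC2 at d27). Lamc1 in SC against SI clones at d23 ran from -0.57 to 0.21 (without SC4), and was 0.11 without SI1. Mia2 in SI d27 against feeders ran from -0.08 to 0.03 (without feeder 1). The cause was not tested.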
